A study of Mus musculus with 6 samples.

Results

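Cwc22 was measured in RNA of 6 infarcted mouse hearts by 1 array feature carrying its symbol. A further 7 features without a symbol, whose identifiers begin TC02, were taken with it because their value in 12W-TTg replicate 2 lay 3 or more above the mean of the 8W-Ctrl arrays. Together these were 8 of the 22206 features on the Clariom S mouse array. Every value below is a deposited log2 signal, on which a step of 1 is a doubling. The features were selected on these measured signals, chosen by the excess of 12W-TTg replicate 2, so their levels and differences are a description and carry no test.

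The hearts fell into 3 groups of 2, with 1 array per heart. The 12W-TTg mice were Tcf21iCre/Tomato/MGTH2A and were sampled 3 months after infarction. MGTH2A is known as a joint construct of Gata4, Hand2, Mef2c and Tbx5, regulators of heart muscle genes. The 12W-Ctrl mice were Tcf21iCre/Tomato, without MGTH2A, and were also sampled at 3 months. The 8W-Ctrl mice had the same genotype as 12W-Ctrl and were sampled at 2 months. All mice were operated on when 8 weeks old by ligation of the left coronary artery, all carried the Cre and the reporter, and all are labelled male. Per the labels, mice with an ejection fraction (the share of blood pumped out per beat) above 45% were removed. Tcf21 is a gene of cardiac fibroblasts, so the Cre acts in a part of the cells of the whole heart from which RNA was taken. The strain of the mice is not given in the sources used here. In bulk heart RNA, more cells of a type and more RNA per cell cannot be told apart.

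CWC22 is a protein of the spliceosome, the machine that removes introns. It binds the helicase EIF4A3 and brings it to the spliceosome, where EIF4A3 is placed on the RNA as the core of the exon junction complex. That complex marks where exons were joined and helps nonsense-mediated decay to find transcripts with a premature stop codon. In mice, Cwc22 lies on chromosome 2 in a segment known as R2d, which is present in different numbers of copies in different strains and wild populations. Copies of the gene can be transcribed, and near-identical copies share array probes. Gene copy number was not measured in these hearts.

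The sequence before the start of Cwc22 is shown because transcription of the gene begins at its end. It is the 250 bases before the start in RefSeq (GRCm38.p6, chr2:77946357-77946606, minus strand), written 5′ to 3′ along the gene, with matches to ACTACAA on either strand in capitals.
Cwc22 promoter: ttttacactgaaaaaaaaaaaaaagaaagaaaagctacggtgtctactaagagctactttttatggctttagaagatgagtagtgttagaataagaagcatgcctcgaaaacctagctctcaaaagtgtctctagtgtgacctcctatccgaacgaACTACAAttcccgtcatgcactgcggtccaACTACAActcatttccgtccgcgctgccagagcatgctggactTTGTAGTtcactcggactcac
ACTACAA has 7 letters and opens the longer motif known for ZNF143, a transcription activator known from human cells. It matched 3 times in the Cwc22 window, at bases 94 to 88 and 64 to 58 before the start on the gene's strand and at bases 21 to 15 on the other strand. Of 32851 RefSeq promoter windows of the same length, 923 (2.81%) held at least 1 match on either strand. Windows with 3 or more matches numbered 3, that of Cwc22 included. No rule for choosing this motif was set out, so the counts are a description. These are matches of letters in the reference genome, and no binding was measured here.

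Several arrays stood apart before any comparison. Pearson correlations between replicates over all features were 0.989 in 12W-TTg, 0.986 in 12W-Ctrl and 0.984 in 8W-Ctrl, and array medians ran from 4.91 to 5.0. The Y-linked gene Eif2s3y was at 10.86 in 8W-Ctrl replicate 2 and between 2.48 and 2.90 on the other 5 arrays, and Uty and Kdm5d were likewise high on that array alone, so 5 arrays labelled male had these 3 Y-linked genes at low values. All 8 cardiomyocyte markers were above the 30th percentile of mean signal (3.65). The transgene factor Tbx5 was at 10.72 and 9.31 in 12W-TTg and at 6.42 and 7.47 in 12W-Ctrl. Mef2c was at 15.93 and 13.94 in 12W-TTg and at 12.52 and 12.87 in 12W-Ctrl. Hand2 was at 9.40 and 8.13 in 12W-TTg and at 8.01 and 7.57 in 12W-Ctrl. Gata4 overlapped between these groups, at 14.05 and 13.43 in 12W-TTg and at 13.22 and 13.75 in 12W-Ctrl. All 4 transgene factors were higher in 12W-TTg replicate 1 than in replicate 2, the reverse of Cwc22. Fibroblast markers averaged 9.72 in 12W-TTg replicate 2, below the other arrays (10.8 to 12.7), and macrophage markers averaged 8.09 there, against 8.92 to 10.95 elsewhere. Of the fibroblast markers, Col1a1 was lower in 8W-Ctrl replicate 2 (6.97) than in 12W-TTg replicate 2 (7.81), and Tcf21 was at 4.98 on both. The other measured fibroblast markers were each lowest in 12W-TTg replicate 2. Skeletal muscle and adipocyte markers averaged highest in 8W-Ctrl replicate 1 (8.53 and 5.95), but not every adipocyte marker was high there. Lep was at 2.96, against 2.88 to 3.16 elsewhere, and 1 of 3 measured adipocyte markers had a mean above the 30th percentile. Precision is limited by there being only 2 hearts in each group.

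Cwc22 was highest in a single transgenic heart. Its values were 6.89 and 11.02 in 12W-TTg replicates 1 and 2, 7.03 and 7.37 in 12W-Ctrl, and 5.27 and 5.67 in 8W-Ctrl. The 12W-TTg pair differed by 4.13, a 17.5-fold difference between 2 hearts of the same label, whereas the 12W-Ctrl and 8W-Ctrl pairs each differed by less than 1. 12W-TTg replicate 2 exceeded the next highest array by 3.65 (12.6-fold), while the difference of 12W-TTg replicate 1 from the 12W-Ctrl mean was -0.31. All 6 values were above the 30th percentile of mean signal.

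**Figure D1:**
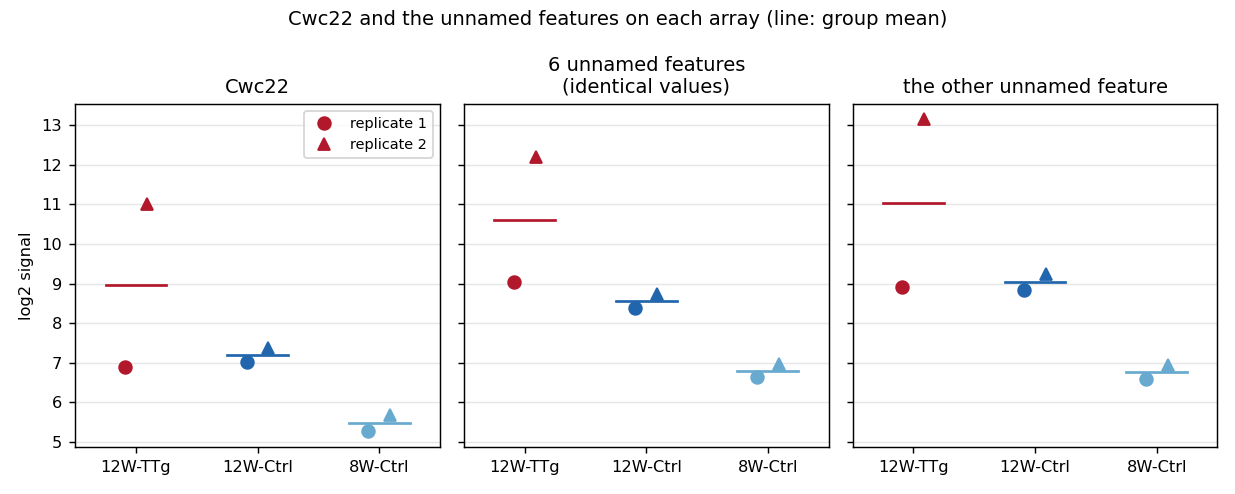
Log2 signal of Cwc22, of the 6 unnamed features with identical values, and of the other unnamed feature on each of the 6 arrays, with the line at the group mean. In each panel 12W-TTg replicate 2 is the highest array (11.02, 12.20 and 13.15) and both 8W-Ctrl arrays are the lowest.

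The 12W-TTg mean of Cwc22 turned on that one array. The gene averaged 8.96 ± 2.92 in 12W-TTg, 7.20 ± 0.24 in 12W-Ctrl and 5.47 ± 0.28 in 8W-Ctrl (SD, n = 2 each). The 12W-TTg mean was 1.76 above 12W-Ctrl (SE 1.12 from limma's fit to all 6 arrays, n = 2 each) and 3.49 above 8W-Ctrl. The first of these differences was -0.31 without 12W-TTg replicate 2 and 3.82 without 12W-TTg replicate 1. The second was 1.42 and 5.55 without the same arrays. The values of 12W-TTg and 12W-Ctrl overlapped, so the direction of the transgenic difference rested on which transgenic heart was counted.

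A second step in Cwc22 ran between the control groups. The 12W-Ctrl mean was 1.73 above the 8W-Ctrl mean (3.32-fold), and the lower 12W-Ctrl value lay 1.36 above the higher 8W-Ctrl value. Leaving out any 1 of these 4 arrays gave differences of 1.53 to 1.93. The 8W-Ctrl array with high Y-linked genes was at 5.67 and the one without at 5.27. A link between the step and the Y-linked genes was not tested. Time after infarction and any other difference between the 2 sets of control mice cannot be told apart. In rising order the groups were 8W-Ctrl, 12W-Ctrl and 12W-TTg, of which 12W-TTg and 12W-Ctrl did not differ beyond their spread.

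The unnamed features ran in parallel with Cwc22. They carry the consecutive identifiers TC0200001206.mm.2 to TC0200001212.mm.2, and the array annotation gives none of them a gene, so none is named here. The first 6 had identical values on every array and count as 1 measurement. These values were 9.03 and 12.20 in 12W-TTg, 8.38 and 8.74 in 12W-Ctrl, and 6.63 and 6.97 in 8W-Ctrl. Identical rows were not limited to this run, since 270 features fell into 114 sets that shared all 6 values, and 4 sets held 6 or more.

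The last feature of the run, TC0200001212.mm.2, had its own values. They were 8.91 and 13.15 in 12W-TTg, 8.83 and 9.24 in 12W-Ctrl, and 6.60 and 6.95 in 8W-Ctrl. The excess of 12W-TTg replicate 2 over the next highest array was thus 3.91 for this feature and 3.17 for the identical 6. The step between 12W-Ctrl and 8W-Ctrl means was 2.26 and 1.76 for the same features. In the 6 identical features 12W-TTg replicate 1 lay 0.47 above the 12W-Ctrl mean and above both arrays of that group, whereas in TC0200001212.mm.2 it lay between the 12W-Ctrl values.

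Across the 6 arrays the Pearson correlation with Cwc22 was 0.996 for TC0200001212.mm.2 and 0.986 for the identical 6. Without 12W-TTg replicate 2 the values were 0.994 and 0.949. These correlations describe 6 arrays on which the features were chosen. Whether these features share sequence with Cwc22 was not tested. Among unnamed TC02 features, the rule's threshold fell in a wide gap of the values that the rule itself used. The lowest excess of a chosen feature over the 8W-Ctrl mean was 5.40, and the nearest unnamed TC02 feature outside had 1.76. All 1638 TC02 features with a gene in RefSeq lay on chromosome 2, and the named one nearest the threshold was Tubb1, a tubulin of platelets, at 2.62. Named features outside TC02 also had an excess past 3, among them Cyfip2 (4.105), Ppbp (3.89) and Nr1d1 (3.12).

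**Figure D2:**
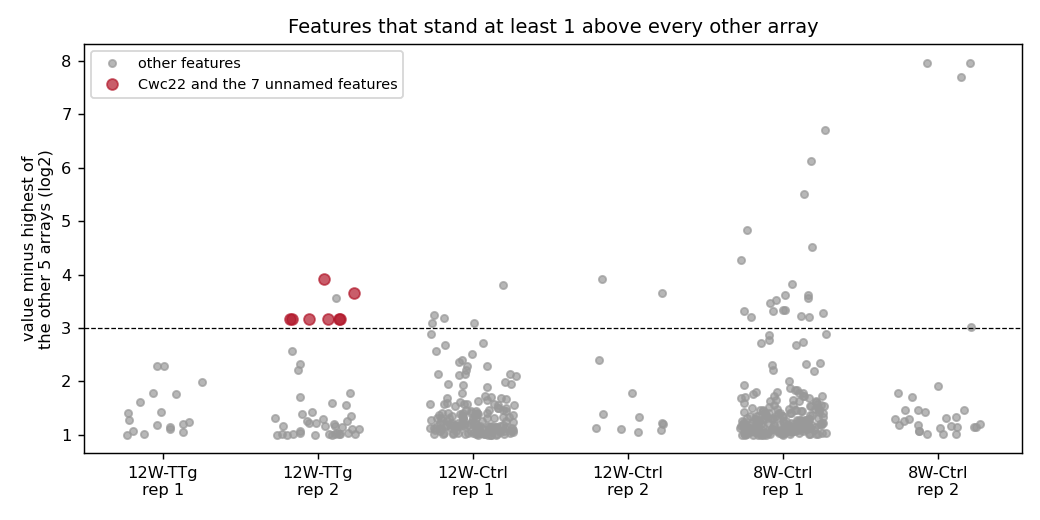
Each point is a feature whose log2 signal on an array exceeded the highest of the other 5 arrays by 1 or more, and the dashed line marks 3. Features past 3 are seen on 5 of the 6 arrays. In 12W-TTg replicate 2 the red points were chosen for their value on that array, and 6 of them are 1 measurement.

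Lone high values were counted on every array, as a description. In 12W-TTg replicate 2, 9 features exceeded every other array by 3 or more, namely Cwc22, the 7 unnamed features and Ppbp, the platelet basic protein. These are 4 distinct measurements, since 6 features share their values, and the rule chose all but Ppbp for their level on this array. 12W-TTg replicate 1 had 0 such features. The 12W-Ctrl replicates 1 and 2 had 5 and 2, and the 8W-Ctrl replicates 1 and 2 had 20 and 4. The 4 in 8W-Ctrl replicate 2 were Eif2s3y, Uty, Kdm5d and an unnamed feature whose identifier begins TC0Y. Several in 8W-Ctrl replicate 1 had excesses of 3.2 to 3.34 and identifiers beginning TC04 or TC4. The counts of these other arrays were not reduced to distinct measurements. The plot of features standing above every other array shows that a lone high value was no property of 12W-TTg replicate 2 alone.

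Genes beside Cwc22 did not share its values. Of the 20 measured genes nearest to it on chromosome 2, 10 on each side, none differed by 3 or more between the 12W-TTg arrays. Their replicate 2 minus replicate 1 ran from -1.58 to 0.59. Only 33 of all 22206 features differed by 3 or more, so this count does not set the neighbours apart from other genes. On one side the nearest was Zfp385b, a zinc finger gene, at 5.66 and 5.40 in 12W-TTg, 6.61 and 6.49 in 12W-Ctrl, and 5.37 and 5.16 in 8W-Ctrl. Next was Sestd1, at 8.01 and 8.27 in 12W-TTg, 8.32 and 8.24 in 12W-Ctrl, and 8.01 and 8.30 in 8W-Ctrl. The third, Ccdc141, a centrosomal protein gene, had 14.31 and 14.68 in 12W-TTg, 12.50 and 13.89 in 12W-Ctrl, and 13.57 and 14.51 in 8W-Ctrl. On the other side Gm14461 was at 2.36 and 2.54 in 12W-TTg, 2.60 and 2.72 in 12W-Ctrl, and 2.79 and 2.49 in 8W-Ctrl. Ube2e3, a ubiquitin-conjugating enzyme gene, was at 9.76 and 10.01 in 12W-TTg, 9.51 and 9.80 in 12W-Ctrl, and 10.13 and 9.94 in 8W-Ctrl. Itga4, an integrin subunit of leukocytes, was at 5.44 and 5.72 in 12W-TTg, 6.41 and 6.12 in 12W-Ctrl, and 5.71 and 6.20 in 8W-Ctrl.

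Zfp385b had a step between the control groups as Cwc22 did, without the high 12W-TTg array. Its 12W-Ctrl mean was 1.29 above the 8W-Ctrl mean (SE 0.24, n = 2 each), which did not pass limma's test adjusted by Benjamini-Hochberg over all features (adjusted p = 0.396). Its 12W-TTg values lay below both 12W-Ctrl values, with a difference of -1.02 (SE 0.24, adjusted p = 0.646). The largest differences between 12W-TTg and 12W-Ctrl among the neighbours were those of Frzb, a secreted Wnt antagonist (-2.81), the phosphodiesterase gene Pde1a (-1.66) and Ccdc141 (1.30). In limma, 0 of the 20 neighbours passed at an adjusted p under 0.05 in this comparison, where 0.00450% of all features did. By unadjusted p under 0.05, 1 neighbour was higher and 4 were lower, where the shares of all features were 3.35% and 4.11%. Without 12W-Ctrl replicate 1 the Frzb difference was -1.72, and without 12W-Ctrl replicate 2 it was -3.89. The neighbours' median difference was -0.10, and that of all features 0.01.

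**Figure D3:**
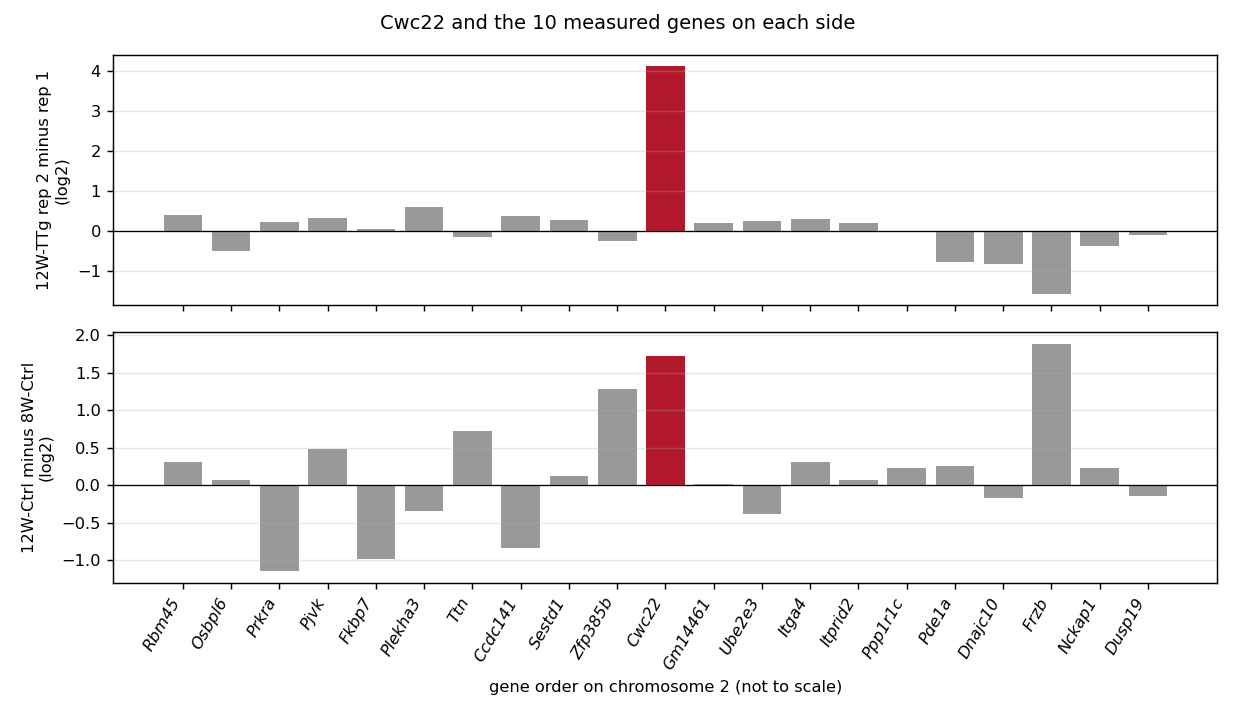
Log2 difference of 12W-TTg replicate 2 minus replicate 1 (top) and of the 12W-Ctrl mean minus the 8W-Ctrl mean (bottom) for Cwc22 (red) and the 10 measured genes on each side, in the RefSeq gene order of chromosome 2. Cwc22 has 4.13 at the top, where the neighbours run from -1.58 to 0.59.

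Features numbered next to the unnamed run, named after their values were seen, did not exceed every other array by 3 or more in 12W-TTg replicate 2. Only 9 of all 22206 features did, 8 of them chosen by the rule, so this does not set the flanking features apart. Fam171b, the last named feature before it, was at 6.07 and 6.33 in 12W-TTg, 7.16 and 6.04 in 12W-Ctrl, and 5.92 and 5.81 in 8W-Ctrl. Btbd18, the first named feature after it, was at 3.46 and 4.0 in 12W-TTg, 2.94 and 2.86 in 12W-Ctrl, and 2.78 and 2.82 in 8W-Ctrl. Its highest value was thus also in 12W-TTg replicate 2, by 0.54.

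Other genes known to vary in copy number or to carry a deletion between mouse strains were read on the same arrays, and 6 of the 7 listed had a feature (Nnt had none matched by symbol). Ide, the insulin-degrading enzyme, is duplicated in some C57BL/6J mice together with Fgfbp3 and a part of Btaf1. Its values were 12.34 and 13.64 in 12W-TTg, 11.58 and 11.73 in 12W-Ctrl, and 11.36 and 11.70 in 8W-Ctrl. Both 12W-TTg hearts lay above all 4 control hearts, and replicate 2, the heart with high Cwc22, was 1.30 above replicate 1. The 12W-TTg mean of Ide was 1.34 above 12W-Ctrl (SE 0.42, n = 2 each), which did not pass limma's test over all features (unadjusted p = 0.0149, adjusted p = 0.661, range 0.261 to 0.999 over the alternatives). The difference was 0.69 without 12W-TTg replicate 2 and 1.99 without 12W-TTg replicate 1.

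The genes duplicated together with Ide had smaller differences. Btaf1, a TBP-associated factor, was at 7.74 and 7.96 in 12W-TTg, 7.39 and 7.52 in 12W-Ctrl, and 7.32 and 7.62 in 8W-Ctrl, again with both 12W-TTg values on top. Fgfbp3, an FGF-binding protein gene, was at 3.84 and 3.09 in 12W-TTg, 3.25 and 3.43 in 12W-Ctrl, and 3.04 and 3.65 in 8W-Ctrl, where groups overlapped at dim values. Glo1, the glyoxalase gene of a duplication seen in some strains, was at 12.00 and 12.52 in 12W-TTg, 11.90 and 12.27 in 12W-Ctrl, and 12.09 and 11.66 in 8W-Ctrl. Btbd9 and Dnah8, from the region of Glo1, differed between 12W-TTg and 12W-Ctrl by 0.02 and 0.24. Dnah8 was dim on every array (2.92 to 3.28). All 6 genes had a difference above 0 between 12W-TTg and 12W-Ctrl, with a median of 0.21, where the median of all features was 0.01. These genes lie in the regions of Ide and Glo1, so they are not independent, and the share of all features above 0 was not counted. In limma 0 of the 6 passed, against 0.00450% of all features, and Ide alone had an unadjusted p under 0.05, against 7.47% of all features.

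**Figure D4:**
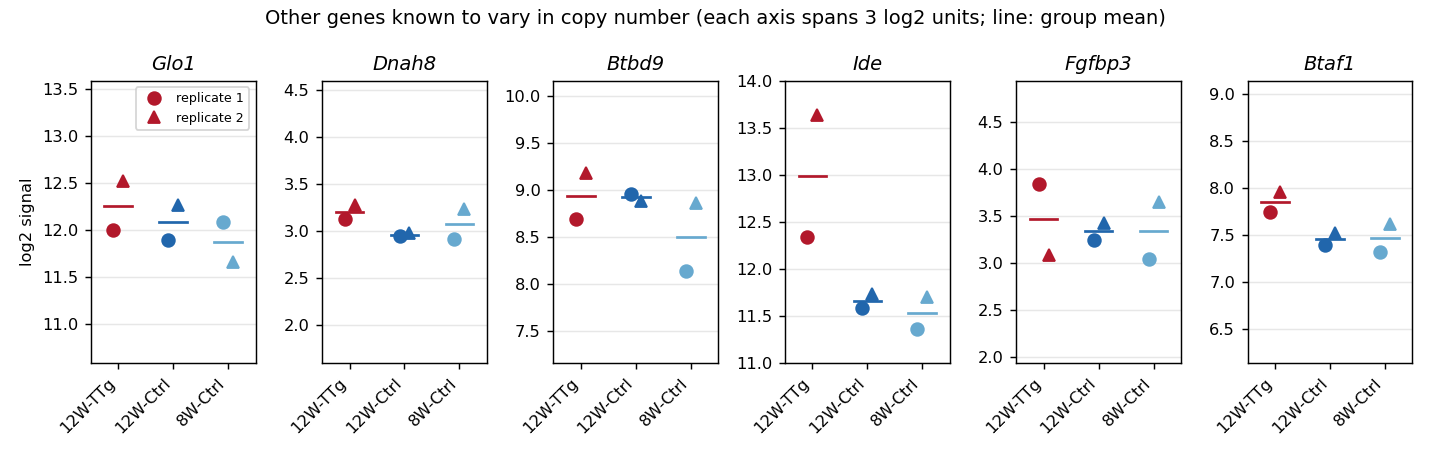
Log2 signal of 6 other genes known to vary in copy number between mouse strains, by group and replicate, with lines at group means and axes of equal span. Ide is highest in 12W-TTg replicate 2 (13.64), and the widest range among the other 5 genes is 1.04.

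None of the 7 measured genes of the exon junction complex had a high value in one heart as Cwc22 did. Magoh, Magohb and Sap18, also among the 10 listed, had no feature matched by symbol. Differences of 3 or more between the 12W-TTg arrays were rare, in 33 of all 22206 features. Eif4a3, the helicase that CWC22 binds, was at 9.02 and 9.13 in 12W-TTg, 9.04 and 9.56 in 12W-Ctrl, and 9.51 and 9.33 in 8W-Ctrl. Its values overlapped between 12W-TTg and 12W-Ctrl, and its difference was -0.23 (SE 0.26, adjusted p = 0.891 in limma), or 0.04 without 12W-Ctrl replicate 2. Rbm8a, which encodes the core protein Y14, was at 11.73 and 11.94 in 12W-TTg and 12.07 and 11.89 in 12W-Ctrl. Rnps1, a splicing regulator that joins the complex, had the largest difference of the 7 measured members, with 9.51 and 10.19 in 12W-TTg and 8.76 and 9.15 in 12W-Ctrl (0.90, SE 0.31, adjusted p = 0.661). Acin1, another splicing regulator of the complex, differed by 0.23. None of the 7 passed in limma, against 0.00450% of all features. By unadjusted p under 0.05, 1 was higher, against 3.35% of all features, and the median was -0.14.

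Nonsense-mediated decay factors and decay-sensitive transcripts were read because they act after the exon junction complex. Of 7 measured decay factors, 0 passed in limma and 0 had an unadjusted p under 0.05 in 12W-TTg against 12W-Ctrl, with a median of 0.05 and the largest differences in Smg5 (0.81), the helicase gene Upf1 (0.46) and Smg8 (-0.37), a partner of the kinase that acts on UPF1. Of 10 measured transcripts known as decay targets or for poison exons, 0 passed and 1 had an unadjusted p under 0.05, namely Hnrnpdl, an RNA-binding protein gene (0.65, SE 0.23, adjusted p = 0.661). Hnrnpdl was at 11.62 and 11.37 in 12W-TTg, 10.78 and 10.91 in 12W-Ctrl, and 11.29 and 11.25 in 8W-Ctrl. The ribosomal protein gene Rps9 (-0.88) and Gadd45b (-0.77), a stress gene, had the largest differences. The list median was -0.07. The shares of all features in this comparison were 0.00450% passing and 7.47% by unadjusted p. Between the 12W-TTg arrays, replicate 2 minus replicate 1 had a median of -0.07 in the factors and -0.02 in the transcripts, where Cwc22 had 4.13.

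None of the measured spliceosome genes passed the test either, in a comparison where 0.00450% of all features passed. Of 22 measured genes for the Prp19 complex and related proteins, with which CWC22 enters the spliceosome, 0 passed in limma and Rnf113a2 (-0.83, SE 0.26, adjusted p = 0.661) alone had an unadjusted p under 0.05. Rnf113a2 was at 3.79 and 3.83 in 12W-TTg, 4.36 and 4.91 in 12W-Ctrl, and 4.57 and 4.73 in 8W-Ctrl, so both 12W-TTg values lay below all 4 control values. Bud13 (-0.52) and Cwc27 (0.51), a prolyl isomerase-like protein that pairs with CWC22 in human spliceosomes, had the next largest differences. Their median difference between 12W-TTg and 12W-Ctrl was -0.09. Of 20 core spliceosome and helicase genes, 0 passed and the splicing factor gene Prpf18 (0.68, SE 0.26, adjusted p = 0.661) alone had an unadjusted p under 0.05, with a median of 0.03. Cdc40, a factor of the second splicing step, had the largest difference among them (0.82), and the helicase gene Dhx8 had -0.44. Over the 5 pathway lists together, 0 of 66 measured members passed in 12W-TTg against 12W-Ctrl, against 0.00450% of all features. Of the members, 4 had an unadjusted p under 0.05, 3 higher and 1 lower, where the share of all features was 7.47%. Aqr, a helicase of the spliceosome, was the member with the widest gap between the 12W-TTg arrays, at 6.01 and 7.52.

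**Figure D5:**
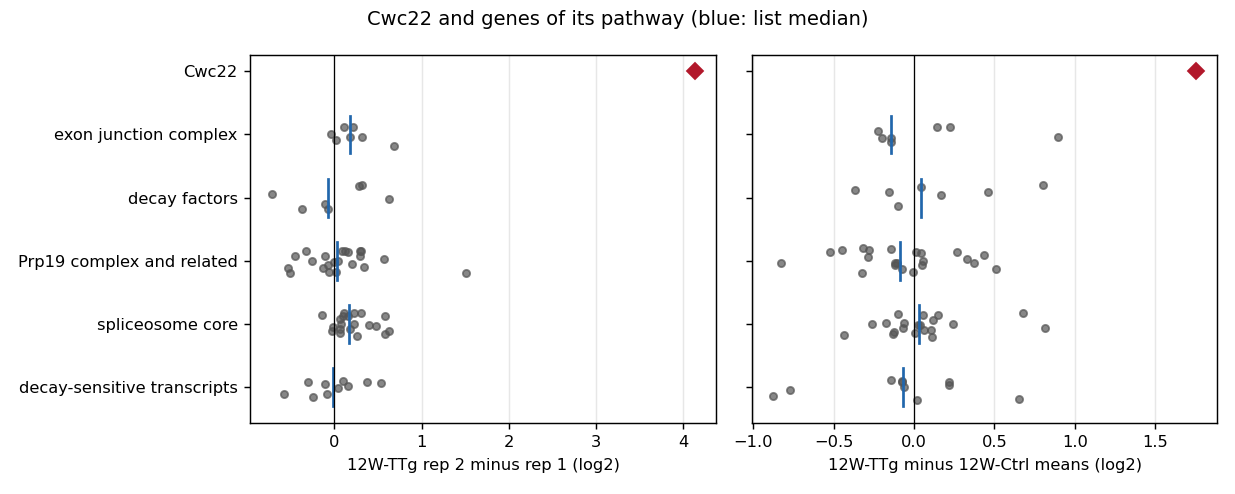
Log2 difference of 12W-TTg replicate 2 minus replicate 1 (left) and of the 12W-TTg mean minus the 12W-Ctrl mean (right) for Cwc22 (red) and for genes of its pathway, with blue lines at list medians. Every point of the 5 lists lies below Cwc22 in both panels, and the list medians lie between -0.14 and 0.18.

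The remaining comparisons of these lists gave no call. In 12W-Ctrl against 8W-Ctrl, where 0.00450% of all features passed and 8.00% had an unadjusted p under 0.05, 0 members of the 5 pathway lists passed. Of their 66 measured members, 6 had an unadjusted p under 0.05, 2 of them higher and 4 lower, where the shares of all features were 3.91% and 4.09%. Prpf18 (-1.10) and Ctnnbl1 (0.995), a Prp19-associated protein gene, were past it in opposite directions. In 12W-TTg against 8W-Ctrl, which shares its arrays with the comparisons above, 0 of 66 members passed in limma and 8 had an unadjusted p under 0.05, 2 higher and 6 lower. Of all features, 0 passed in that comparison and 9.71% had such a p, 4.30% higher and 5.41% lower.

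Other genes that resembled Cwc22 were found by their excess in 12W-TTg replicate 2. After Ppbp, the named features with the largest excess over every other array were Klk1b22, a kallikrein gene (2.56), Tubb1 (2.33), Cd226, a receptor of lymphocytes and platelets (2.22), and F830016B08Rik (1.78). Slc2a3, Cyfip2, Alox12, Noct and Plekhh1 followed with 1.36 to 1.59. Klk1b22 was at 3.08 and 5.70 in 12W-TTg and between 3.01 and 3.14 on the 4 control arrays, so it was dim everywhere but in the heart with high Cwc22. By Pearson correlation with Cwc22 over the 6 arrays, the 5 on top of 254 named features with a range of 3 or more were Cd226 (0.914), Nr1d1, a repressor of the circadian clock (0.893), F830016B08Rik (0.869), Tubb1 (0.811) and Lgr6 (0.779). Without 12W-TTg replicate 2 these correlations were 0.329, 0.883, 0.443, -0.420 and 0.537, so Nr1d1 alone among them kept a value near 0.9. How many of the 254 features reached such a value without that array was not counted.

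Some platelet transcripts were highest in the heart with high Cwc22. Ppbp was at 3.09 and 10.70 in 12W-TTg, 4.11 and 3.46 in 12W-Ctrl, and 7.13 and 6.49 in 8W-Ctrl. Of the 6 measured erythroid and platelet markers, Ppbp, Gp9 and Itga2b were highest in 12W-TTg replicate 2, and Pf4, Alas2 and Slc4a1 were not. The mean of the list was 7.21 on that array and 5.33 to 6.65 on the others. Cwc22 and Ppbp ran opposite ways between the control groups, where 8W-Ctrl was higher than 12W-Ctrl for Ppbp and lower for Cwc22. The part of platelet RNA in these values was not tested. Testis germ cell markers averaged between 3.44 and 3.87 on all arrays.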

How the data were processed

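Whole-heart RNA (100 ng per array, integrity number over 7.0 per the labels' protocols) was hybridised to 6 arrays. The deposited values are log2 signals, 1 per feature and array, and per the submitters' processing notes the authors used Transcriptome Analysis Console 4.0. The summary, background and normalization methods are not given in the sources used here. Values were used as deposited, without further scaling. Array symbols were updated through Entrez identifiers with RefSeq (GRCm38.p6), and a gene with several features was read from the brightest.

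Groups came from the sample titles. All 22206 features were fitted with limma 3.58.1 (R 4.3.3), with 1 coefficient per group, two-sided moderated tests and Benjamini-Hochberg adjustment over all features (threshold 0.05). An exact permutation test of 2 against 2 arrays cannot pass that threshold. Replicates are separate hearts per the series design. Cwc22, the gene lists and the neighbours were chosen with earlier results of these data known. The lists were written from general knowledge and serve for counts and medians only. Genes were named by a rule: Cwc22 and the unnamed features, Eif4a3, all copy-number genes, 3 neighbours per side, the 3 largest differences per list, the 10 largest excesses and 5 highest correlations (features with a range of 3 or more). Genes with an unadjusted p under 0.05, Rbm8a, Aqr, Ctnnbl1, Fam171b, Btbd18 and the sex chromosome genes were named after values were seen.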

Additional observations from a re-analysis of the deposited data

How the results depend on the processing

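Quantile normalization and median centring left the Cwc22 differences and its excess in 12W-TTg replicate 2 within 0.05 of the reported values. Leaving out each array in turn gave Cwc22 differences of -0.31 to 3.82 (12W-TTg against 12W-Ctrl), 1.53 to 1.93 (12W-Ctrl against 8W-Ctrl) and 1.42 to 5.55 (12W-TTg against 8W-Ctrl), with the extremes of the first and last set by the 12W-TTg arrays. The count of features passing was 1 for 12W-TTg against 12W-Ctrl, 2 with the 2 groups alone, and 0 to 2 with an array left out. It was 1 for 12W-Ctrl against 8W-Ctrl, 0 with an intensity trend, quantile normalization or without dim features, and 0 to 6 with an array left out. It was 0 for 12W-TTg against 8W-Ctrl (2156 at an unadjusted p under 0.05), 1 with a robust prior, and 0 to 22 with an array left out, the highest without 8W-Ctrl replicate 2. The cause was not tested. With the replicate number as a replicate block, the counts were 11, 1 and 5, and Frzb passed in limma (adjusted p = 0.0457, against 0.661 without the block and 0.0457 to 0.999 over the alternatives). The numbers are not known to pair the hearts, whose deviations correlated at 0.120 to 0.136. Eif4a3 changed sign when 1 array was left out (-0.485 to 0.035, the upper value without 12W-Ctrl replicate 2). Of 8 genes other than Cwc22 followed under these alternatives, chosen after the data were seen, Eif4a3 and Frzb alone changed direction or call.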

Other observations

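Lone low values also occurred, the widest in 12W-Ctrl replicate 2. Myl4 was at 5.90 there, against 14.39 to 16.23 on the other 5 arrays. Sln (5.53, against 12.73 to 14.45) and Myl7 (3.45, against 9.73 to 12.39) were low on the same array. In 12W-TTg replicate 2, Sfrp2 was at 6.93, against 10.26 to 14.12 elsewhere, and Acta1 at 12.78, against 15.97 to 19.30. In 8W-Ctrl replicate 1, Cyfip2, a gene of the WAVE actin regulator, was at 6.80, against 11 to 13.33 on the other 5 arrays, and Pttg1, the securin gene of cell division, was at 7.38, against 10.75 to 11.36. All these genes lay more than 3 below every other array, and they were named after their values were seen. Cyfip2 was highest in 12W-TTg replicate 2 (13.33), the heart with high Cwc22.

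Skeletal muscle and fat transcripts led the features that stood above every other array in 8W-Ctrl replicate 1. Myh2, a skeletal myosin gene, was at 10.51 there and between 3.31 and 3.81 elsewhere, and Adipoq, the adipocyte hormone adiponectin, was at 10.34 and between 3.98 and 4.83 elsewhere. Cwc22 was at 5.27 in this heart and at 5.67 in the other 8W-Ctrl heart, where both transcripts were low.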
